A study of Mus musculus with 8 samples.

Results

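The response of mRNA levels to the chemokine Cxcl12 in cells with an internal tandem duplication in FLT3 (FLT3/ITD) was set against the response in cells carrying wild type FLT3. The comparison used all 8 of the 8 arrays of the series, and 13868 genes were tested, counting 1788 array features without a gene name. Of the 13868, 12024 were well above background on all 8 arrays. The response in each kind of cell was the log2 level with Cxcl12 minus the level without it on the same slide. The difference of responses, called D here, was the FLT3/ITD response minus the wild type response. A positive D therefore means that the level with Cxcl12 was further above, or less far below, the level without it in FLT3/ITD cells than in wild type FLT3 cells.

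The cells were Ba/F3, a mouse pro-B cell line that needs IL3 to grow, and all groups had been grown in serum with IL3 before washing. The 4 groups were FLT3/ITD cells with Cxcl12, FLT3/ITD cells without it, wild type FLT3 cells with Cxcl12, and wild type FLT3 cells without it. Each group was held for 4 h in medium with albumin only, and the groups with Cxcl12 received 100 ng/ml of the recombinant mouse protein. Total RNA was labelled with Cy3 and hybridised to 1-colour Agilent mouse arrays, with 2 arrays per group and 1 array of each group on each of 2 slides. The FLT3/ITD arrays are labelled N51 on slide 1 and N78 on slide 2, so the type of duplication and the slide cannot be told apart. On both slides a group occupied 1 fixed position, and position and group cannot be told apart either. The labels do not say whether the arrays of a group came from separate cultures or from 1 clone, and p-values measure only the spread between these samples, which may be technical.

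Cxcl12 binds the receptor Cxcr4, which couples to inhibitory G proteins and drives the directed migration and retention of blood progenitors through rearrangement of actin. FLT3 is the tyrosine kinase receptor through which FLT3 ligand acts on early blood cells. Internal tandem duplications, found in acute myeloid leukaemia, keep it active without its ligand and engage STAT5, which cytokines such as IL3 also activate and whose targets include the feedback genes Cish and Socs3 and the kinase gene Pim1.

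The share of probes well above background was 49.2% to 55.0% per array. Levels are given as the log2 of intensity minus that of the 75th percentile of the same array, and levels of different genes are not compared. Of 15 pro-B cell markers, 6 were well above background on all 8 arrays, among them Cd79a, Cd79b and Ptprc, and 7 were above it on none, among them Pax5, Ebf1, Rag1 and Rag2. Neither Cxcl12 nor Ackr3, which encodes its second receptor, had a probe above background on any array, and the mouse Flt3 probe was above it on 4 of 8 and was not tested. Of 14 neutrophil markers, 3 were above background on all 8 arrays. The summed linear level of all 14, in units of the 75th percentile, was 3.80 and 2.60 in FLT3/ITD cells with Cxcl12 and 7.01 and 9.70 in FLT3/ITD cells, against 43.6 and 28.7 in wild type FLT3 cells with Cxcl12 and 76.3 and 53 in wild type FLT3 cells (slides 1 and 2). That sum was thus lower with Cxcl12 in both kinds of cell, and its part in the results below was not tested. Without Cxcl12, the sum of 18 mast cell and basophil markers was also lower in FLT3/ITD cells (205 and 99.6, against 449 and 325). The sum of 16 T and NK cell markers was higher there (32.2 and 4.19, against 8.47 and 3.37).

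No gene responded to Cxcl12 differently in the 2 kinds of cell at an adjusted p under 0.05 in limma's interaction test. Of 13868 genes 0 passed in either direction (0% called), the lowest adjusted p was 0.999, and every D below was therefore not past the test. At an unadjusted p under 0.05 there were 235 genes (1.69%), 183 with higher D (1.32%) and 52 with lower D (0.375%). That split was 87 higher and 173 lower with arrays scaled to their median, and 123 higher and 78 lower after quantile normalization. In FLT3/ITD cells alone, 0 genes passed for the Cxcl12 response (0% called, lowest adjusted p 0.132), and 1450 genes (10.5%) had an unadjusted p under 0.05, 874 higher (6.3%) and 576 lower (4.15%). In wild type FLT3 cells alone, 9 genes passed, each with an adjusted p of 0.0441: Actc1 rose (0.00721% of genes called) and 8 fell (0.0577%), among them 5830408C22Rik, Fam162a, Gipr, Rcor2, Selenbp1, Selenbp2 and Slc2a3. There 996 genes (7.18%) had an unadjusted p under 0.05, 408 higher (2.94%) and 588 lower (4.24%). Passing in one kind of cell and not in the other does not show a difference between them, and for these 9 genes too the difference itself did not pass. The calls in wild type FLT3 cells numbered 0 after quantile normalization, without the filter on dim probes or with the mean of a gene's probes. They numbered 0 to 13 when 1 array was left out.

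The slides were less alike in D than in either response. Across all genes the correlation of D between the slides was 0.0659, against 0.308 for the FLT3/ITD responses and 0.318 for the wild type responses. Genes are not independent replicates, and the 2 values of D share no array, so these are descriptions. D was at least 1 in size on both slides and of the same sign for 112 genes with higher D (0.81% of 13821 with all values) and 22 with lower D (0.159%), while for 67 genes (0.485%) the slides gave opposite signs. Among genes above background on all 8 arrays these counts were 32 (0.267%), 5 (0.0417%) and 13 (0.108%). The median D of all genes was 0.05, and -0.16 when arrays were scaled to their median in place of the 75th percentile. The split of the unequal genes turned with that scaling, to 53 higher and 65 lower, and was 75 and 51 after quantile normalization. Of 68 genes followed through the alternatives, the D of 47 moved by over 1.5 times when 1 array was left out, and 8 of these reversed. The other 21 include Id1, Lrp5, Phyhd1, S1pr4, Fam162a, Rcor2, Slc2a1, Hk2 and Actc1.

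**Figure D1:**
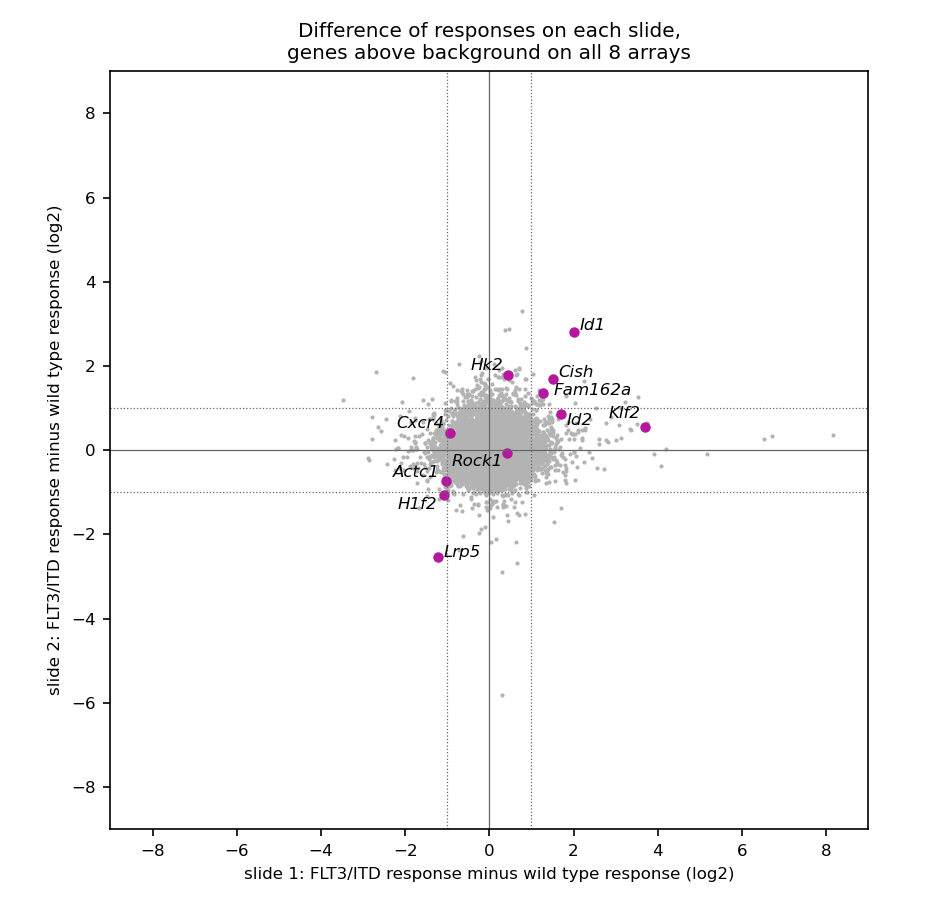
Difference of responses (D, log2, FLT3/ITD response minus wild type response) on slide 1 (horizontal axis) and slide 2 (vertical axis) for each gene well above background on all 8 arrays. Grey points are genes, purple points the named ones, and dotted lines mark 1 in size; Id1 and Lrp5 lie past the lines on both slides in opposite corners, while Klf2 lies far out on slide 1 alone.

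Id1, whose protein blocks DNA binding by basic helix-loop-helix factors, was the gene with the clearest opposite response. Its mRNA was higher with Cxcl12 in FLT3/ITD cells and lower with Cxcl12 in wild type FLT3 cells, on both slides. The level was 4.32 and 1.94 in FLT3/ITD cells with Cxcl12 and 3.31 and 0.38 in FLT3/ITD cells, against 0.53 and -1.49 in wild type FLT3 cells with Cxcl12 and 1.53 and -0.25 in wild type FLT3 cells. The FLT3/ITD response was 1.02 and 1.56 (2.03-fold and 2.96-fold higher), and the wild type response was -1.0 and -1.25 (2.0-fold and 2.37-fold lower). On each slide all 4 arrays were thus in the same order, with FLT3/ITD cells with Cxcl12 highest and wild type FLT3 cells with Cxcl12 lowest. The level in FLT3/ITD minus wild type FLT3 cells was 3.80 and 3.43 with Cxcl12, and 1.78 and 0.62 without it. The D fitted over all 8 arrays was 2.41 ± 0.41 (here and below ± gives the SE of limma), with an unadjusted p of 0.00024 and an adjusted p of 0.999 in limma. Its probe lies on chromosome 2 from 152563046 to 152563105 (mm9), and another Id1 probe above background on all 8 arrays gave a D of 2.03 and 2.69.

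Only Id1 among the genes above background on all 8 arrays had responses of at least 0.5 in size in all 4 slide and cell combinations with FLT3/ITD up and wild type down (0.00834% of 11984), and 0 genes had the reverse (0%). Over all 13821 genes these counts were 7 (0.0506%) and 1 (0.00724%). Its relative Id2, from the same family, had a smaller opposite response. Id2 had a level of 3.52 and -1.54 in FLT3/ITD cells with Cxcl12 and 2.50 and -1.88 in FLT3/ITD cells, against 2.86 and -0.68 in wild type FLT3 cells with Cxcl12 and 3.53 and -0.17 in wild type FLT3 cells. The FLT3/ITD response was 1.02 and 0.34, the wild type response -0.67 and -0.51, and D was 1.27 ± 0.50. The slides differed more for Id2 than the groups did.

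**Figure D2:**
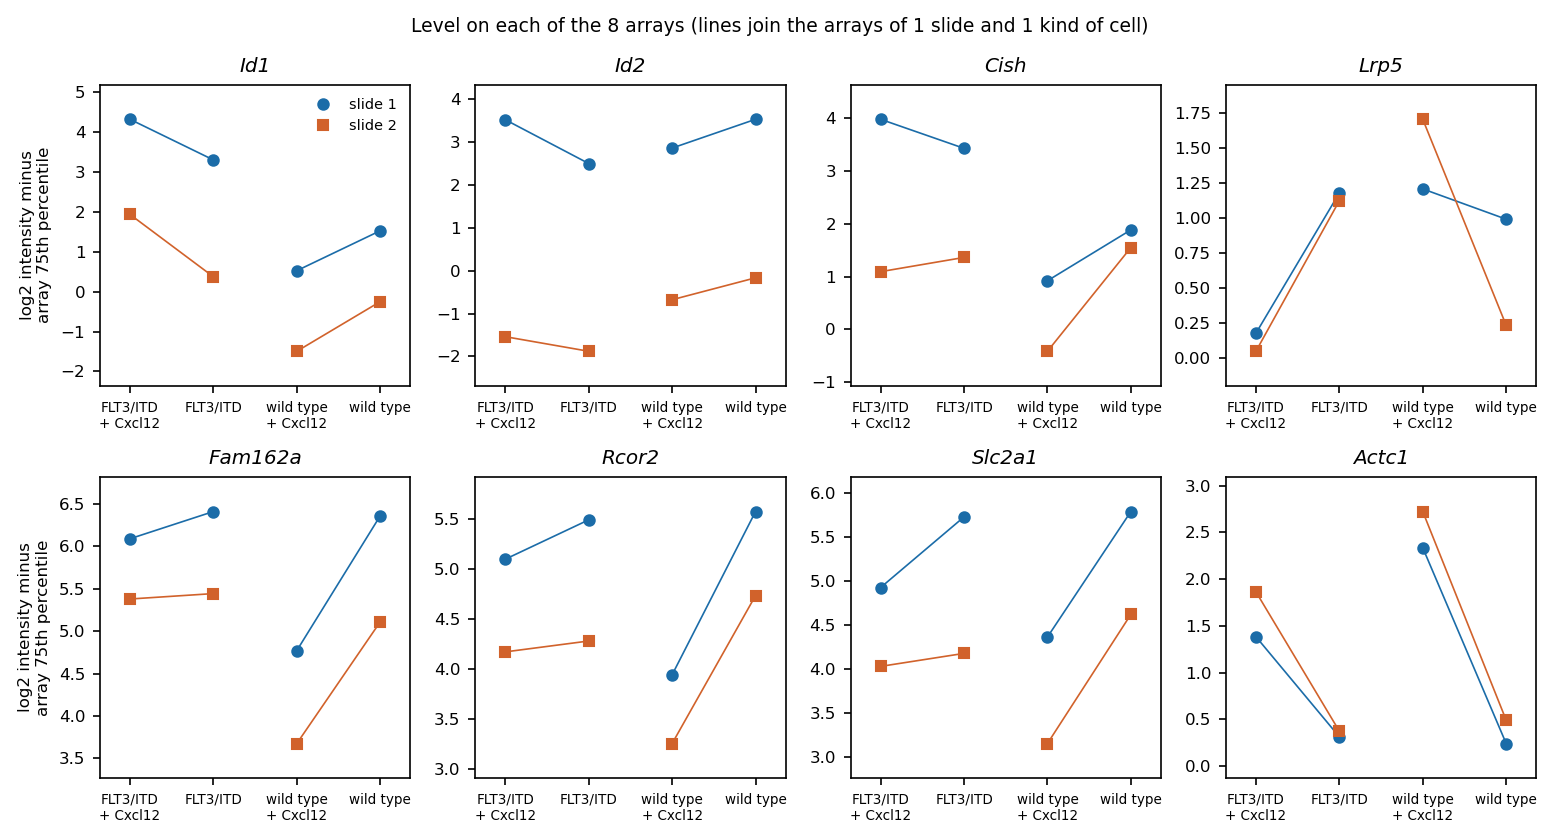
Levels (log2 intensity, with the 75th percentile of each array at 0) of named genes in FLT3/ITD cells with Cxcl12, FLT3/ITD cells, wild type FLT3 cells with Cxcl12 and wild type FLT3 cells, one point per array, with the slides marked apart. For Id1 the points with Cxcl12 lie above those without it in FLT3/ITD cells (4.32 against 3.31 on slide 1) and below them in wild type FLT3 cells (0.53 against 1.53).

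Other genes were higher with Cxcl12 in FLT3/ITD cells and lower with it in wild type FLT3 cells, on both slides. The receptor genes Il4ra and S1pr4 were among them, and receptors were not counted as a class. Of 11984 genes above background on all 8 arrays 491 (4.1%) had this pattern at any size and 336 (2.8%) had the reverse, against 651 (4.71%) and 383 (2.77%) of all 13821. Il4ra, the alpha chain of the IL4 receptor, had FLT3/ITD responses of 0.84 and 0.31 and wild type responses of -0.61 and -0.59 (D 1.18 ± 0.54). S1pr4, a sphingosine 1-phosphate receptor of leukocytes, had 0.48 and 0.29 against -0.81 and -0.46 (D 1.02 ± 0.39). Both receptor genes were well above background on all 8 arrays.

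Siah2 encodes a ubiquitin ligase. Its level was 1.36 and 0.81 in FLT3/ITD cells with Cxcl12 and 0.82 and 0.39 in FLT3/ITD cells, against 0.14 and -0.18 in wild type FLT3 cells with Cxcl12 and 0.46 and 0.86 in wild type FLT3 cells, with D at 1.16 ± 0.38. Its highest array on slide 1 was that of FLT3/ITD cells with Cxcl12 and its lowest on both slides that of wild type FLT3 cells with Cxcl12. Phyhd1, a dioxygenase, had nearly equal D on the slides, 1.30 and 1.32 (fitted 1.31 ± 0.36), from responses of 0.84 and 0.79 in FLT3/ITD cells and -0.46 and -0.54 in wild type FLT3 cells. The homeobox gene Msx1 had 0.75 and 0.39 against -0.44 and -0.80 (D 1.19 ± 0.46, and 0.54 to 1.34 over the alternatives). It was dim, at -4.88 in FLT3/ITD cells and -4.25 in wild type FLT3 cells on slide 1. Tnfsf14, the TNF family ligand LIGHT, had 0.91 and 0.53 against -0.05 and -0.32 (D 0.90 ± 0.40).

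Lrp5, a Wnt co-receptor, had the largest opposite response of the reverse kind among genes above background on all 8 arrays. Its level was 0.18 and 0.05 in FLT3/ITD cells with Cxcl12 and 1.18 and 1.12 in FLT3/ITD cells, against 1.21 and 1.70 in wild type FLT3 cells with Cxcl12 and 0.99 and 0.23 in wild type FLT3 cells. The FLT3/ITD response was -1.0 and -1.07, and the wild type response 0.22 and 1.47. FLT3/ITD cells with Cxcl12 were lowest on both slides and wild type FLT3 cells with Cxcl12 were highest. The fitted D was -1.88 ± 0.42, with an unadjusted p of 0.00151 and an adjusted p of 0.999 in limma. The probe lies on chromosome 19 from 3584872 to 3584930 (mm9), and it was the only Lrp5 probe.

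Weaker genes of the same reverse pattern were B3gntl1, a glycosyltransferase-like gene, with FLT3/ITD responses of -0.75 and -0.94 and wild type responses of 0.74 and 0.15 (D -1.29 ± 0.43), and Tbc1d4, a Rab GTPase-activating protein of glucose transporter traffic, with -0.35 and -0.48 against 0.63 and 0.69 (D -1.08 ± 0.57). Oas3, an interferon-induced oligoadenylate synthetase, had -0.21 and -0.31 against 0.84 and 0.56 (D -0.96 ± 0.51, and -1.28 to -0.33 over the alternatives). It was dim, at -4.54 in FLT3/ITD cells and -4.96 in wild type FLT3 cells on slide 1. Cat, which encodes catalase, had -0.27 and -0.23 against 0.34 and 0.56 (D -0.70 ± 0.30). Nprl3, part of a complex that restrains mTORC1, had -0.53 and -0.29 against 0.33 and 0.19 (D -0.67 ± 0.32), and the co-repressor gene Tle5 had -0.33 and -0.18 against 0.22 and 0.44 (D -0.59 ± 0.33). Another B3gntl1 probe above background on all 8 arrays gave a D of -0.12 and -0.14 with no opposite responses, and another Nprl3 probe had an FLT3/ITD response of 0.24 on slide 1. B3gntl1 was dim too, at -4.01 in wild type FLT3 cells on slide 1, and its D was -1.51 to -0.67 over the alternatives. In all 6 the direction in each kind of cell was the same on both slides, which is the rule that chose them. H1f2, a linker histone gene, was unequal rather than opposite: its FLT3/ITD response was -1.07 and -1.42 and its wild type response 0.01 and -0.37 (D -1.07 ± 0.32, unadjusted p 0.00843 and adjusted p 0.999 in limma).

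**Figure D3:**
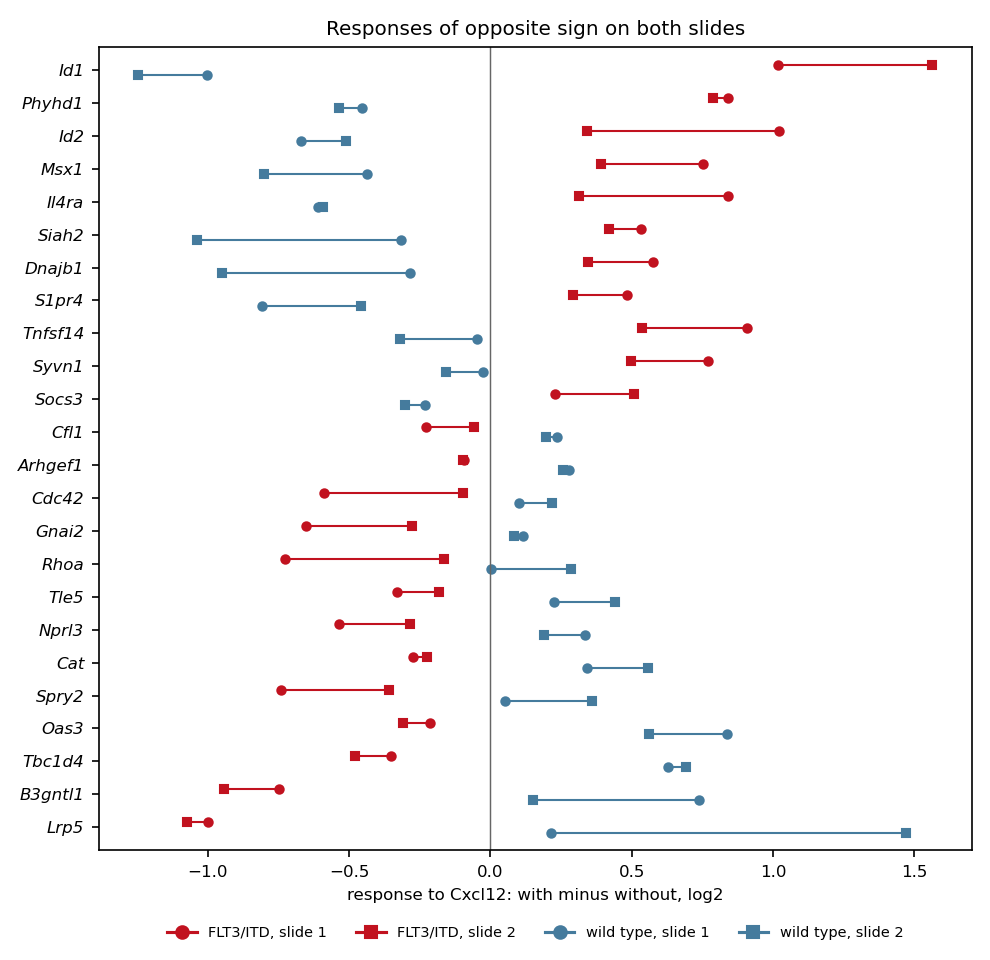
Responses to Cxcl12 (log2, with minus without) of genes whose responses had opposite signs, at any size, in the 2 kinds of cell, FLT3/ITD cells and wild type FLT3 cells, with 1 mark per slide. Id1 (1.02 and 1.56 against -1.0 and -1.25) and Lrp5 (-1.0 and -1.07 against 0.22 and 1.47) are the widest apart.

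Glycolysis and hypoxia genes were lower with Cxcl12 in wild type FLT3 cells and less so in FLT3/ITD cells. Of 30 measured members, 23 (76.7%) had D above 0 on both slides and 1 had D below 0 on both, against 28.5% and 21% of all genes and 27.3% and 21.2% of those above background on all 8 arrays, as all 30 were. The median response was -0.29 in FLT3/ITD cells and -0.66 in wild type FLT3 cells, and the median D was 0.42 (0.27 on slide 1 and 0.34 on slide 2), against 0.05 for all genes. The wild type response was below 0 on both slides for 25 of 30 members (83.3%, against 31.5% of all genes), and the FLT3/ITD response for 20 (66.7%, against 26.7%). For D, 6 members had an unadjusted p under 0.05, all higher (1.32% of all genes), and 0 passed. The list's D stayed 0.27 to 0.38 above that of all genes under each scaling, background correction and filter tried, and was 0.25 to 0.53 when 1 array was left out.

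Slc2a3 and Slc2a1 encode glucose transporters that carry glucose into the cell. Slc2a3 had 4.40 and 4.44 in FLT3/ITD cells with Cxcl12 and 5.93 and 5.27 in FLT3/ITD cells, against 3.04 and 3.07 in wild type FLT3 cells with Cxcl12 and 4.99 and 5.08 in wild type FLT3 cells. It fell by 1.98 in wild type FLT3 cells (SE 0.23, adjusted p = 0.0441), while its FLT3/ITD response was -1.53 and -0.83, and D was 0.80 ± 0.32. The arrays with Cxcl12 were below those without it in both kinds of cell, without overlap. Slc2a1 had 4.93 and 4.03 in FLT3/ITD cells with Cxcl12 and 5.73 and 4.18 in FLT3/ITD cells, against 4.36 and 3.15 in wild type FLT3 cells with Cxcl12 and 5.79 and 4.62 in wild type FLT3 cells. Its FLT3/ITD response was -0.80 and -0.15, its wild type response -1.43 and -1.47, and D was 0.97 ± 0.29. On both slides the lowest array was that of wild type FLT3 cells with Cxcl12.

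Hk2, a hexokinase of the first step of glycolysis, had 5.68 and 3.86 in FLT3/ITD cells with Cxcl12 and 6.31 and 3.66 in FLT3/ITD cells, against 5.36 and 2.97 in wild type FLT3 cells with Cxcl12 and 6.43 and 4.56 in wild type FLT3 cells. Its D was 0.44 on slide 1 and 1.79 on slide 2 (fitted 1.12 ± 0.34). The slides thus agreed in sign and differed in size. Pfkp, the platelet form of phosphofructokinase, had responses of -0.72 and -0.29 in FLT3/ITD cells and -1.50 and -0.85 in wild type FLT3 cells (D 0.67 ± 0.33). Among the other members, Ankrd37 and Higd1a, known targets of hypoxia-inducible factor, had D of 1.07 ± 0.43 and 0.82 ± 0.35. The prolyl hydroxylase subunit P4ha1 had 0.63 ± 0.37 and the histone demethylase Kdm3a 0.60 ± 0.31. Gpi1 and Pgam1, enzymes of glycolysis, had 0.45 ± 0.20 and 0.44 ± 0.24. The members furthest below 0 were Pfkm, with a D of -0.19 ± 0.32, and the carbonic anhydrase gene Car9, with -0.18 ± 0.40.

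Fam162a and Rcor2, which are outside that list, had the same shape with larger D. Fam162a, a mitochondrial protein gene induced by hypoxia, had 6.09 and 5.38 in FLT3/ITD cells with Cxcl12 and 6.41 and 5.44 in FLT3/ITD cells, against 4.77 and 3.68 in wild type FLT3 cells with Cxcl12 and 6.36 and 5.11 in wild type FLT3 cells. It fell by 1.51 in wild type FLT3 cells (SE 0.19, adjusted p = 0.0441), while its FLT3/ITD response was -0.32 and -0.06. On each slide 3 of the 4 groups lay close together and wild type FLT3 cells with Cxcl12 lay apart. D was 1.32 ± 0.27, with an unadjusted p of 0.00086 and an adjusted p of 0.999 in limma. Another, dimmer Fam162a probe above background on all 8 arrays gave a D of -0.20 on slide 1 and 2.03 on slide 2. With that probe the FLT3/ITD response was -1.45 and -1.82, against -1.24 and -3.85 in wild type FLT3 cells. The small FLT3/ITD response thus rests on 1 probe. Rcor2, a co-repressor that binds the histone demethylase LSD1, had 5.10 and 4.17 in FLT3/ITD cells with Cxcl12 and 5.49 and 4.28 in FLT3/ITD cells, against 3.94 and 3.26 in wild type FLT3 cells with Cxcl12 and 5.58 and 4.74 in wild type FLT3 cells. It fell by 1.56 in wild type FLT3 cells (SE 0.20, adjusted p = 0.0441), and D was 1.31 ± 0.28. As for Fam162a, wild type FLT3 cells with Cxcl12 were lowest on both slides.

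**Figure D4:**
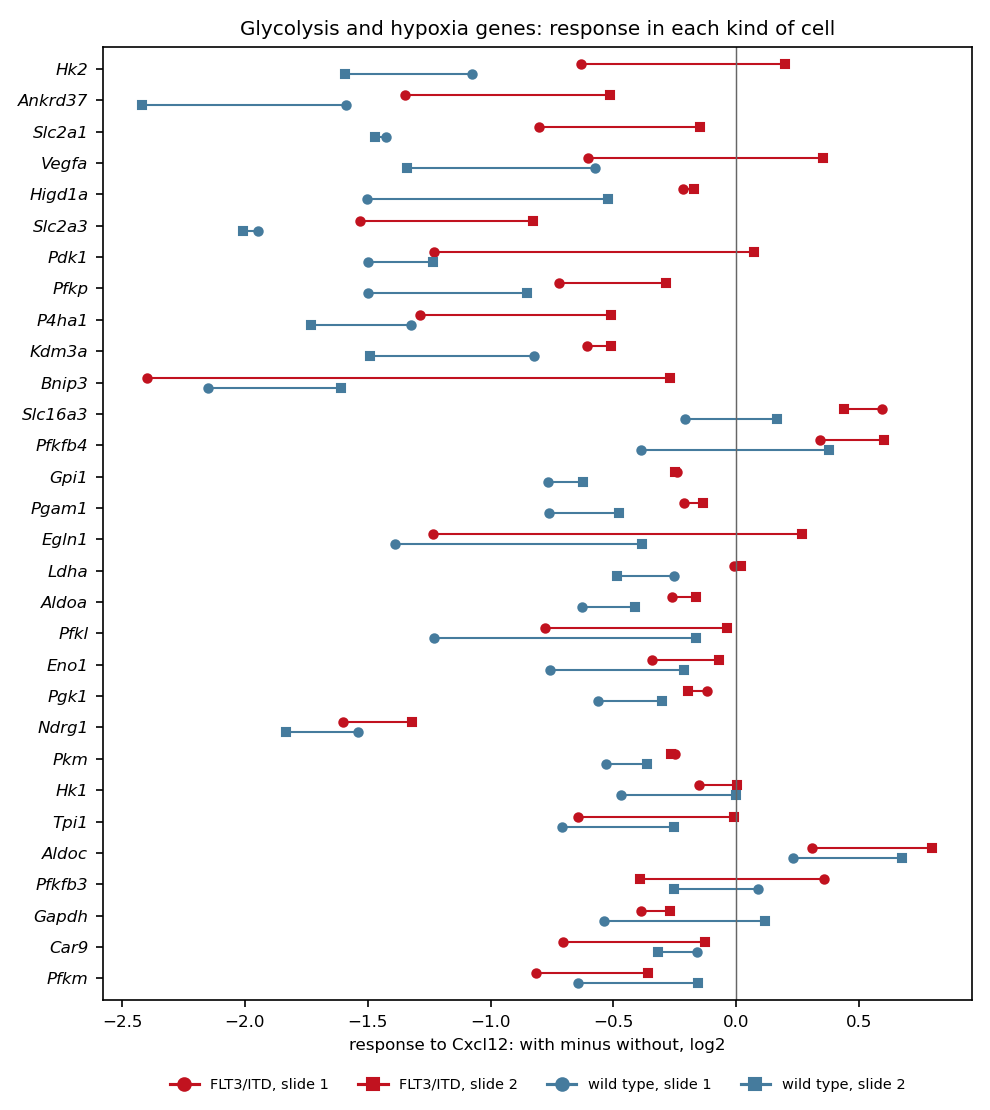
Responses to Cxcl12 (log2, with minus without) of the 30 measured glycolysis and hypoxia genes in FLT3/ITD cells and wild type FLT3 cells on each slide. Most members lie below 0 in both kinds of cell (medians -0.29 and -0.66) and further below it in wild type FLT3 cells.

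Promoters of 4 of these genes are shown because members that moved together can be read against the core letters bound by hypoxia-inducible factor. Each is the 250 bases before the gene's start in RefSeq (GRCm38.p6), 5′ to 3′ on the gene's strand, with every ACGTG or GCGTG on either strand in capitals (overlapping matches run together; ACGTG also lies within CACGTG, which reads the same on both strands). Fam162a (chr16:36071562-36071811, minus strand) holds 6 matches, Rcor2 (chr19:7267144-7267393, plus strand) 4, Slc2a1 (chr4:119108495-119108744, plus strand) 2 and Hk2 (chr6:82774455-82774704, minus strand) 2.
Fam162a: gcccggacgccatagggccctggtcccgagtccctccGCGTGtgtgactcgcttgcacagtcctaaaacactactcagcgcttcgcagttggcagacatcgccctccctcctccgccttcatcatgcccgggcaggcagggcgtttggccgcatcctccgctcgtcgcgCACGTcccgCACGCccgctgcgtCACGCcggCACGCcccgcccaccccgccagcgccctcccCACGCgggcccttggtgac
Rcor2: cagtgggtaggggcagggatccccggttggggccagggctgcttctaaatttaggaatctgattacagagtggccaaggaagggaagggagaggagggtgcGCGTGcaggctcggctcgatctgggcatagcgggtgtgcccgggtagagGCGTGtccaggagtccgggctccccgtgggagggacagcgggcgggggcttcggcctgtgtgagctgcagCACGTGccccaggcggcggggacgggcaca
Slc2a1: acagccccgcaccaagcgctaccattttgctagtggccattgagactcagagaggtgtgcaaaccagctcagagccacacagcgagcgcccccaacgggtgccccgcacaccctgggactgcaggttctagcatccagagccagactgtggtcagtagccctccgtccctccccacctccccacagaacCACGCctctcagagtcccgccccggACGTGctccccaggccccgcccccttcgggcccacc
Hk2: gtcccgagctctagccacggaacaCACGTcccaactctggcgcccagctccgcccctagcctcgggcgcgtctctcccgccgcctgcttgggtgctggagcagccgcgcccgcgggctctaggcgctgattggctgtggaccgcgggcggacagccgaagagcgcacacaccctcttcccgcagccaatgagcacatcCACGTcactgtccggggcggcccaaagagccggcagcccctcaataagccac

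Over all promoters of this length, 38.6% (12679 of 32851 windows) hold ACGTG or GCGTG, and 76.1% (35 of 46) of those of the glycolysis and hypoxia list do. The 46 windows belong to 30 genes. The list holds known targets of hypoxia-inducible factor, so its share was partly set by how it was made. A match is a description of the letters, and whether any factor bound these sites was not tested.

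Other genes also fell in wild type FLT3 cells. Gipr, an incretin receptor, passed at an adjusted p of 0.0441 in limma. On slide 1, where all 4 arrays were well above background, its FLT3/ITD response was -3.06 against -3.22 in wild type FLT3 cells. On slide 2 the array of wild type FLT3 cells with Cxcl12 was not well above background, so the size of its fall and its D are not given. Selenbp1 and Selenbp2, near-identical selenium-binding protein genes whose signals may be shared, fell by 1.80 and 1.76, with D of 0.69 ± 0.33 and 0.58 ± 0.30. 5830408C22Rik, to which no role is given here, fell by 2.81 and had a D of 0.52 ± 0.49. Traf4, an adaptor of TNF receptor signalling, had responses of 0.79 and -0.19 in FLT3/ITD cells against -0.56 and -1.51 in wild type FLT3 cells (D 1.33 ± 0.43). Ltb, lymphotoxin beta, had -0.42 and 0.13 against -1.32 and -0.96 (D 1.0 ± 0.30).

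STAT5 targets tended to have D above 0, led by Id1 and the feedback gene Cish. Of 12 measured members, 8 (66.7%) had D above 0 on both slides and 1 below 0 on both, against 28.5% and 21% of all genes. The median D was 0.37 (0.48 on slide 1 and 0.14 on slide 2), and 0.16 with median scaling, and 2 members had an unadjusted p under 0.05, both higher (1.32% of all genes). The median was 0.082 without the slide 1 array of wild type FLT3 cells with Cxcl12 and 0.11 without the slide 1 array of FLT3/ITD cells with Cxcl12. Cish, a suppressor of cytokine signalling, had 3.98 and 1.09 in FLT3/ITD cells with Cxcl12 and 3.43 and 1.36 in FLT3/ITD cells, against 0.92 and -0.42 in wild type FLT3 cells with Cxcl12 and 1.89 and 1.55 in wild type FLT3 cells. Wild type FLT3 cells with Cxcl12 were lowest on both slides, while the FLT3/ITD response differed in sign between them. D was 1.61 ± 0.69, and 0.72 to 2.49 over the alternatives. Socs3, a related suppressor, had opposite responses of 0.23 and 0.51 against -0.23 and -0.30 (D 0.63 ± 0.45).

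The survival kinases Pim1 and Pim2 had D of 0.55 ± 0.54 and 0.52 ± 0.39. Pim1 had -0.36 and 0.60 in FLT3/ITD cells with Cxcl12 and -0.35 and 0.39 in FLT3/ITD cells, against -3.60 and -1.66 in wild type FLT3 cells with Cxcl12 and -3.32 and -1.03 in wild type FLT3 cells. The 2 kinds of cell did not overlap, and the Cxcl12 responses were small beside that gap. Of the members with no common sign on the slides, Bcl2l1, the survival gene of BCL-XL, had a D of 0.22 ± 0.44 and Socs2 of -0.14 ± 0.34. Osm, oncostatin M, was the member with D below 0 on both slides, at -0.27 ± 0.45. The STAT motif TTCNNNGAA lies in 3 of 16 promoter windows of this list (18.8%) and in 7.02% of all windows. The 16 windows belong to 11 genes, and a list of STAT5 targets may hold this motif by its making.

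Heat shock genes and genes of the unfolded protein response had medians of D above that of all genes when fitted over both slides, but not on slide 1. There the medians were 0.119 and 0.0955, against 0.125 for all genes, and on slide 2 they were 0.39 and 0.26, against -0.028. For heat shock proteins the median was 0.40 over 11 members, and 0.11 without the slide 1 array of FLT3/ITD cells. D was above 0 on both slides for 7 members (63.6%) and below for 2 (18.2%), against 28.5% and 21% of all genes. Dnajb1, an HSP40 co-chaperone, had 6.01 and 5.14 in FLT3/ITD cells with Cxcl12 and 5.43 and 4.80 in FLT3/ITD cells, against 5.72 and 5.29 in wild type FLT3 cells with Cxcl12 and 6.0 and 6.24 in wild type FLT3 cells. Its responses were 0.58 and 0.35 in FLT3/ITD cells and -0.28 and -0.95 in wild type FLT3 cells, with D at 1.08 ± 0.36. Another, dimmer Dnajb1 probe above background on all 8 arrays had FLT3/ITD responses of -0.16 and -0.57 and a D of 0.17 and 1.52, so the opposite signs rest on 1 probe. Without Cxcl12 the level was higher in wild type FLT3 cells on both slides, and with it the slides disagreed. The HSP110 gene Hsph1 had a D of 0.70 and 1.94 (1.32 ± 0.79, and 0.18 without the slide 2 array of wild type FLT3 cells, 2.45 without the slide 1 array), the mitochondrial co-chaperonin Hspe1 0.58 ± 0.32 and the HSP40 gene Dnaja1 0.56 ± 0.40.

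For the 19 genes of the unfolded protein response and its chaperones the median D was 0.28, and 0.068 with median scaling. D was above 0 on both slides for 9 (47.4%) and below for 1 (5.26%), against 28.5% and 21% of all genes. Syvn1, a ubiquitin ligase of the endoplasmic reticulum, had responses of 0.77 and 0.50 in FLT3/ITD cells and -0.03 and -0.16 in wild type FLT3 cells (D 0.73 ± 0.36). Its partner Sel1l had 0.53 and 0.60 against 0.14 and 0.17 (D 0.41 ± 0.30). Of 3 Sel1l probes above background on all 8 arrays, only this 1 had D of a common sign on the slides. Herpud1, of the same degradation pathway, had a D of 0.41 ± 0.42, and -0.029 without the slide 2 array of wild type FLT3 cells. The chaperone gene Hsp90b1 had 0.35 ± 0.26, and of its 2 probes above background on all 8 arrays only 1 had D of a common sign. None of the list's members passed.

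Muscle-type actin genes were higher with Cxcl12 in both kinds of cell and more so in wild type FLT3 cells. Actc1, cardiac actin, had 1.38 and 1.87 in FLT3/ITD cells with Cxcl12 and 0.31 and 0.37 in FLT3/ITD cells, against 2.34 and 2.72 in wild type FLT3 cells with Cxcl12 and 0.24 and 0.49 in wild type FLT3 cells. It rose by 2.16 in wild type FLT3 cells (SE 0.22, adjusted p = 0.0441), and the FLT3/ITD response was 1.07 and 1.49. The 2 kinds of cell did not overlap with Cxcl12 and did without it, and D was -0.88 ± 0.31. Acta2 and Actg2, smooth muscle actins, had D of -0.82 ± 0.34 and -0.85 ± 0.36. Acta1, skeletal muscle actin, had -0.50 ± 0.61 with opposite signs on the slides (-1.14 and 0.14), and 0.37 without the slide 1 array of FLT3/ITD cells. Actin sequences are near-identical and 5 probes of Acta2 disagreed in sign, so these values are uncertain for single actins.

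Of 20 genes of the actin cytoskeleton and those linked to its transcription factor SRF, 7 (35%) had D below 0 on both slides and 2 above. Of all genes, 21% had D below 0 on both slides and 28.5% above. The median response was 0.48 in FLT3/ITD cells and 0.64 in wild type FLT3 cells, and the median D was -0.20, at 0.13 on slide 1 and -0.65 on slide 2. The slides thus disagreed for the list as a whole. Tagln, the actin-binding protein transgelin, went the other way, with responses of 2.30 and -0.17 in FLT3/ITD cells against -0.23 and -1.17 in wild type FLT3 cells (D 1.76 ± 0.77). Beta-actin, Actb, had -2.19 and -0.13 against -0.08 and -0.50 (D -0.87 ± 0.59), a value that came from slide 1.

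The promoter of Actc1 is shown because it was the gene that rose in wild type FLT3 cells and holds the SRF-binding CArG box, in capitals. It is the 250 bases before the start in RefSeq (GRCm38.p6, chr2:114052876-114053125, minus strand), with 1 match on either strand.
Actc1: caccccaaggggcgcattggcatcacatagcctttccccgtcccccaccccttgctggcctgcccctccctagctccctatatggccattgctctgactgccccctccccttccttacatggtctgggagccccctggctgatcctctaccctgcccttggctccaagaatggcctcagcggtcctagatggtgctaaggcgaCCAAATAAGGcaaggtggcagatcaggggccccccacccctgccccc

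A CArG box lies in 8 of 22 promoter windows of the actin list (36.4%) and in 1.47% of all windows. The 22 windows belong to 20 genes. The list was made to hold genes linked to SRF, so its share was partly set in advance. Binding at these sites was not tested.

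Genes of the Cxcr4 pathway itself had D on both sides of 0. Cxcr4 had 0.98 and 2.02 in FLT3/ITD cells with Cxcl12 and 2.26 and 2.05 in FLT3/ITD cells, against 3.14 and 2.31 in wild type FLT3 cells with Cxcl12 and 3.50 and 2.75 in wild type FLT3 cells. D was -0.93 on slide 1 and 0.41 on slide 2 (-0.26 ± 0.57), so it had no common sign. Of 18 receptor, G protein and desensitization genes, 2 (11.1%) had D above 0 on both slides and 4 (22.2%) below. The shares of all genes were 28.5% and 21%. The median D of the list was -0.07 (0.12 and -0.33 on the slides). The inhibitory G protein subunits Gnai2 and Gnai1 had D of -0.56 ± 0.29 and -0.55 ± 0.33, but another Gnai1 probe above background on all 8 arrays gave -0.02 and 0.23. Gnai2 had responses of -0.65 and -0.28 in FLT3/ITD cells and 0.12 and 0.08 in wild type FLT3 cells. Rgs2, which shortens G protein signalling, had -0.49 and -0.56 against -0.03 and 0.04 (D -0.53 ± 0.28), while its relative Rgs3 had D of the other sign, 0.57 ± 0.32.

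Genes of cytoskeletal signalling had D of either sign. The GTPase gene Rhoa had 4.05 and 3.21 in FLT3/ITD cells with Cxcl12 and 4.78 and 3.38 in FLT3/ITD cells, against 5.08 and 3.44 in wild type FLT3 cells with Cxcl12 and 5.08 and 3.15 in wild type FLT3 cells (D -0.59 ± 0.37). FLT3/ITD cells with Cxcl12 had the lowest level on slide 1 only, and the wild type response there was 0.00. Cdc42, a GTPase of cell polarity, had a D of -0.50 ± 0.29, the actin-severing protein gene Cfl1 -0.36 ± 0.23 and the guanine nucleotide exchange factor gene Arhgef1 -0.36 ± 0.29. Rock1, a kinase that promotes actomyosin contraction, had 0.17 ± 0.30, with 0.41 on slide 1 and -0.08 on slide 2, and -0.046 with median scaling.

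Immediate-early genes and feedback genes of MAP kinases had no direction in common. The 21 immediate-early genes had a median D of -0.15. Of them 4 (19.0%) were above 0 on both slides and 7 (33.3%) below, against 28.5% and 21% of all genes. Klf6 and Zfp36, a transcription factor and an mRNA decay factor induced by growth signals, had D of -1.11 ± 0.61 and -1.19 ± 0.55. Klf6 had -0.28 without the slide 2 array of wild type FLT3 cells with Cxcl12 and -1.93 without the slide 1 array, and Zfp36 had -0.50 without the slide 1 array of FLT3/ITD cells and -1.87 without the slide 2 array. Klf2, a transcription factor of quiescent and migrating lymphocytes, had 4.72 and 5.05 in FLT3/ITD cells with Cxcl12 and 1.51 and 5.35 in FLT3/ITD cells, against 0.96 and 4.99 in wild type FLT3 cells with Cxcl12 and 1.45 and 5.84 in wild type FLT3 cells. Its D of 2.13 ± 1.13 came from slide 1 (3.69, against 0.56 on slide 2), and it was the one named gene to pass when an array was left out (4.00, adjusted p = 0.0122 in limma, without the slide 2 array of FLT3/ITD cells with Cxcl12). Fos and Egr2 differed more between the slides than between the kinds of cell, with D of -0.19 ± 0.86 and -0.84 ± 1.30.

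Dusp2, a phosphatase of MAP kinases, had one of the larger shared responses. It was higher with Cxcl12 in both kinds of cell, by 2.67 and 2.41 in FLT3/ITD cells and by 2.02 and 1.56 in wild type FLT3 cells, neither past the test, and D was 0.75 ± 0.40. Dusp10 had a D of -0.76 ± 0.46, with 1 of the 2 arrays of FLT3/ITD cells with Cxcl12 not well above background. For Spry2, an inhibitor of receptor tyrosine kinase signalling, the brighter probe gave -0.76 ± 0.34 and another probe gave 0.59 and 1.1, so its direction is not settled. Myc was higher with Cxcl12 in both kinds of cell by 1.01 and 1.33 in FLT3/ITD cells against 0.83 and 1.68 in wild type FLT3 cells, with a D of -0.08 ± 0.34. Ddit4, an mTORC1 inhibitor induced by stress, was lower in both, with responses of -1.56 and -1.34 in FLT3/ITD cells against -1.35 and -2.97 in wild type FLT3 cells (D 0.71 ± 0.45).

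**Figure D5:**
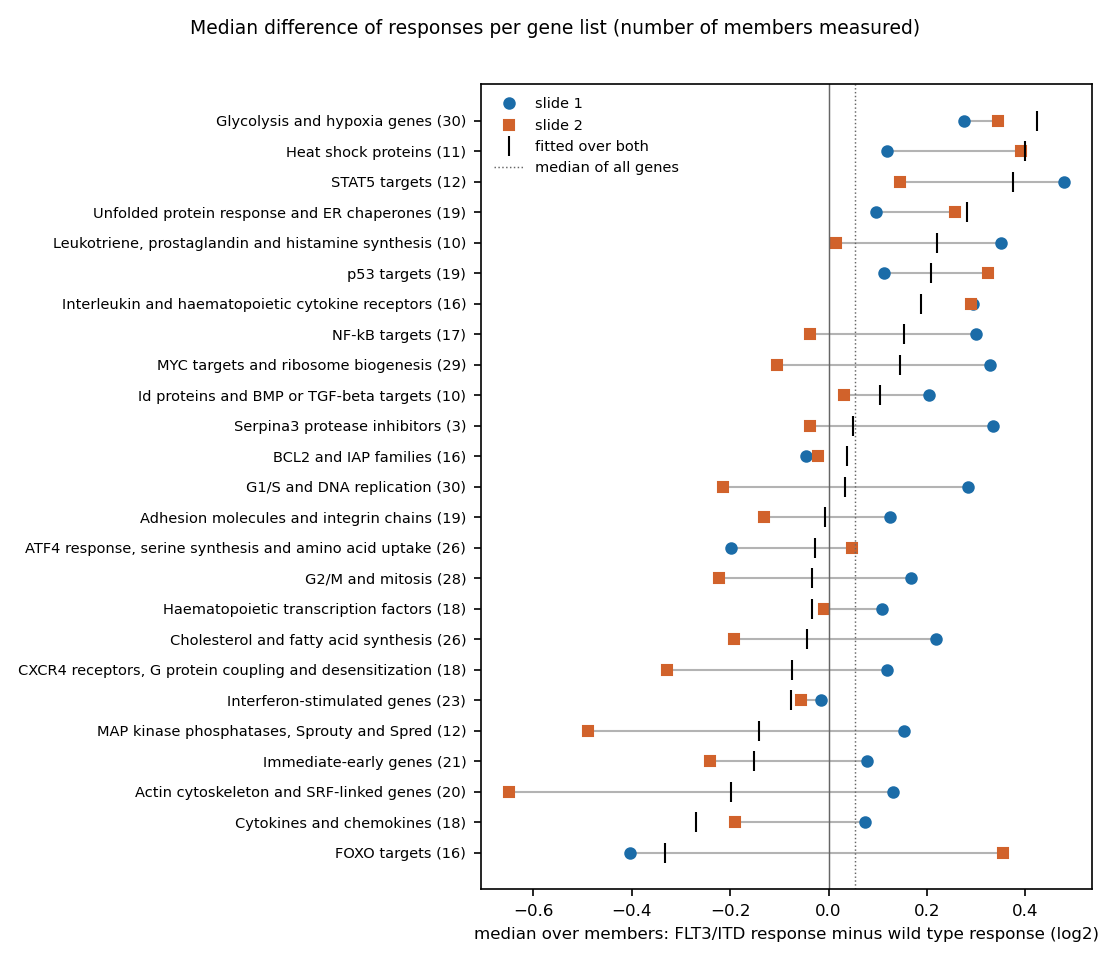
Median difference of responses (D, log2, FLT3/ITD response minus wild type response) over the measured members of each gene list, on slide 1, on slide 2 and fitted over both, with the number of members in brackets and the median of all genes as a dotted line. Glycolysis and hypoxia genes are highest when fitted over both (0.42, with 0.27 and 0.34 on the slides), and the actin list shows slides far apart (0.13 and -0.65).

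Cholesterol and fatty acid synthesis genes had median responses above 0 in both kinds of cell. Their median response was 0.55 in FLT3/ITD cells and 0.63 in wild type FLT3 cells, and the median D over 26 members was -0.04. Of the 28 genes of G2/M and mitosis, 3 had D above 0 on both slides and 9 below, against 28.5% and 21% of all genes. The share above 0 was thus lower than among all genes, and the share below 0 was higher. The median D of the list was -0.03. Birc5, the inhibitor of apoptosis survivin, had 0.25 ± 0.31, the cell cycle inhibitor gene Cdkn1a 0.14 ± 0.31 (-0.077 with median scaling) and the haematopoietic transcription factor gene Runx1 -0.54 ± 0.34. Runx1 had responses of -1.18 and -0.70 in FLT3/ITD cells and -0.31 and -0.50 in wild type FLT3 cells, all below 0. Alox5, the lipoxygenase of leukotriene synthesis, had 0.49 ± 0.71. Serpina3g, a protease inhibitor of leukocytes, was well above background on no array of wild type FLT3 cells with Cxcl12, and no D is given for it. The other 15 lists, with 270 memberships, had medians between -0.33 and 0.22, and over these and the lists described above, 25 in all, 0 of 467 memberships passed.

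Most of the 20 genes with the largest D on both slides, taken as 10 per direction by the smaller of the 2 values, were dim. Of these 20, 3 genes, Lrp5, B3gntl1 and Usp17la, were well above background on all 8 arrays, 17 were not, and 8 were above it on 2 arrays only. For those well above background on neither array of a group only a bound is given, from the bright group's mean over the lowest signal above background in the dim one. On that basis Oprk1, an opioid receptor gene, was at least 4.93-fold lower in FLT3/ITD cells with Cxcl12 than in FLT3/ITD cells, and Prg3, an eosinophil granule protein gene, at least 4.58-fold lower. Ehf, an ETS family transcription factor gene, was at least 3.29-fold higher in FLT3/ITD cells with Cxcl12 than in FLT3/ITD cells, and the Wnt ligand gene Wnt9b at least 3.18-fold higher. Fabp4, a fatty acid-binding protein gene, was at least 1.55-fold lower with Cxcl12 in FLT3/ITD cells. For Car5b, Cntnap2, Dhrs7c, Ptprn, Tshr and 1700128A07Rik the level in wild type FLT3 cells with Cxcl12 was at least 1.05-fold to 1.46-fold lower than in wild type FLT3 cells. Genes above background on 2 arrays only were kept through the group where they were bright, so the filter set the direction of their bounds. All 20 genes were also chosen by D, so the bounds are descriptions and carry no test. When the D of each slide was fitted alone in limma, a test with 2 values per gene, 11 features passed. Among them were Oprk1, Ehf, Wnt9b, Car5b, Cntnap2, Dhrs7c, Tshr and 1700128A07Rik. For each of these genes that test used arrays not well above background, where only a bound holds. Their passing is therefore not support for a difference of responses.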

How the data were processed

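All 8 arrays of 1 dye were used. Per the file headers, the authors' deposited processed intensity was background-subtracted by Agilent Feature Extraction (9.5.1.1 for slide 1, 10.7.3.1 for slide 2), with no scaling between arrays. The authors' normalized tables, from the values, hold deposited intensities scaled to a common median per array. With log2 taken and the 75th percentile subtracted again they served as an alternative. Here log2 of the processed intensity minus each array's 75th percentile (944.5 to 1124 on slide 1, 367 to 601 on slide 2) was taken. Control spots were left out and outlier spots (93 to 203 per array) set to missing. A probe had to be well above background on the 2 arrays of some group (21126 kept), and the brightest stood for its gene. Names came from RefSeq accession (27198 probes), symbol (5590), synonym (721) or the file alone (1373), and 6292 probes had none. Coordinates are mm9, per the slide 2 files. The number of arrays limits the precision.

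limma 3.58.1 with R 4.3.3 fitted 4 group means plus the slide, with an eBayes prior that followed intensity, leaving 3 residual degrees of freedom, and p was adjusted by Benjamini-Hochberg. The slide pairs the arrays per the file headers, and arrays of a slide shared deviations from their group means (r 0.730 to 0.878). The fit was tested on simulated data.

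The naming rule took, per direction, up to 10 genes that passed, open places going to genes with D of at least 1 on both slides ordered by the smaller value. To these were added up to 10 opposite responders per direction above background on all arrays and up to 4 members of each list with the same sign on both slides. Always included were Birc5, Rock1, Runx1, Cdkn1a, Cxcl12, Ackr3, Cxcr4, Flt3, Id1, Pim1, Serpina3g, Alox5, Acta1, Actc1, Dusp2, Myc, Slc2a3 and Ddit4. Also named were list members and genes passing in wild type FLT3 cells, chosen after values were seen. The members, the lists and the rule were chosen with earlier results of these data known. The rule gave 161 genes, not all of which are described, and 68 genes were followed through the alternatives. Some named genes and 1 list are not reported here. Promoters matched 56 of the 68.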

Additional observations from a re-analysis of the deposited data

Results flagged for a closer look

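Of the 68 genes followed through the alternatives, 24 had FLT3/ITD and wild type responses to Cxcl12 of opposite signs on both slides, at any size. Some wild type responses on slide 1 were near 0, at 0.00 for Rhoa, -0.03 for Syvn1 and -0.05 for Tnfsf14. Of the 24, 11 had D above 0 and 13 had D below 0. The difference was tested for each and passed for none (adjusted p 0.999 in limma), and many of them were named for this pattern. Of the 10 with another probe above background on all 8 arrays, every such probe had the same pattern for Id1, Id2 and Tbc1d4, and not for the other 7 (B3gntl1, Cdc42, Cfl1, Dnajb1, Nprl3, Rhoa and Spry2). The values of D above 0 were 2.41 for Id1, 1.31 for Phyhd1, 1.27 for Id2, 1.19 for Msx1, 1.18 for Il4ra, 1.16 for Siah2, 1.08 for Dnajb1, 1.02 for S1pr4, 0.90 for Tnfsf14, 0.73 for Syvn1 and 0.63 for Socs3. The values of D below 0 were -0.36 for Cfl1, -0.36 for Arhgef1, -0.50 for Cdc42, -0.56 for Gnai2, -0.59 for Rhoa, -0.59 for Tle5, -0.67 for Nprl3, -0.70 for Cat, -0.76 for Spry2, -0.96 for Oas3, -1.08 for Tbc1d4, -1.29 for B3gntl1 and -1.88 for Lrp5.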

How the results depend on the processing

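With array median scaling the median D of all genes was -0.16, and each described list median fell by 0.21, to 0.21 (glycolysis and hypoxia), 0.19 (heat shock), 0.16 (STAT5), 0.068 (unfolded protein response), -0.29 (Cxcr4), -0.41 (actin), -0.37 (immediate-early), -0.35 (MAP kinase phosphatases), -0.26 (cholesterol) and -0.25 (G2/M), 3 genes passed in FLT3/ITD cells, and Rock1 (-0.046) and Cdkn1a (-0.077) reversed. Quantile normalization gave 0.27 for glycolysis and hypoxia, 75 unequal genes higher and 51 lower (main 112 and 22), 4 opposite genes (main 8) and 0 genes passed in wild type FLT3 cells. Normexp as planned failed on 1 array, where 4 spots lay over 1000 below their local background. Without them, a choice made after seeing the data, it gave 1 gene passed in wild type FLT3 cells, 1 opposite gene, 12 unequal genes (7 higher, 5 lower, main 134) and 2 unequal genes of opposite sign on the slides (main 67). Without a filter on dim probes these were 0, 39, 579 and 500. With genes above background on all 8 arrays they were 1 opposite, 37 unequal and 13 of opposite sign, and with responses of at least 1 there was 1 opposite gene. The mean of a gene's probes gave 0 passed in wild type FLT3 cells and reversed Spry2 (0.044). Without the replicate block 0 genes passed in wild type FLT3 cells and 0 in the interaction, and without the intensity trend 0 in wild type and 1 in FLT3/ITD cells. The D of each slide fitted alone gave 11 genes (10 higher, 1 lower), among them dim genes for which only bounds are given above. The cause was not tested.

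Leaving out 1 array gave 0 to 20 genes in the interaction (0 to 20 higher, 0 to 1 lower). These were 20 without FLT3/ITD with Cxcl12 on slide 2, 7 without FLT3/ITD on slide 2, and 1 each without wild type FLT3 or FLT3/ITD on slide 1. It gave 0 to 54 genes in FLT3/ITD cells and 0 to 13 in wild type FLT3 cells. List medians, in runs added after seeing the data, ranged over 0.25 to 0.53 for glycolysis and hypoxia, 0.11 to 0.53 for heat shock, 0.082 to 0.72 for STAT5 targets, 0.12 to 0.39 for the unfolded protein response, and -0.62 to 0.41 for immediate-early genes. The ranges were -0.37 to 0.06 for the Cxcr4 list, -0.45 to 0.01 for actin, -0.37 to 0.10 for MAP kinase phosphatases, -0.15 to 0.09 for cholesterol and -0.26 to 0.18 for G2/M. D reversed in such runs for Acta1 (-1.37 to 0.37), Birc5 (-0.12 to 0.62), Cxcr4 (-1.08 to 0.56), Rock1 (-0.056 to 0.39), Alox5 (-0.18 to 1.16), Myc (-0.41 to 0.24), Cdkn1a (-0.11 to 0.38) and Herpud1 (-0.029 to 0.85). Id1 ranged over 1.98 to 2.85 and Lrp5 over -2.31 to -1.45 in all alternatives. With 2 arrays per group, only differences far above the spread between slides could pass, and dim probes have only bounds.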

Other observations

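Of 29 genes with a symbol, well above background on all 8 arrays and with D of at least 1 on both slides, the wild type response was below 0 on both slides in 20 and the FLT3/ITD response above 0 on both in 17, with both in 9. Of the 4 such genes with D of at most -1, the responses were opposite on both slides in 2. These counts describe genes chosen by D and carry no test.

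Genes of the other G proteins and adaptors gave no common direction. Gnb2 had a D of -0.31 ± 0.34 and Rgs18 of -0.40 ± 0.39, both with the slides of opposite sign, while Arrb1, an arrestin that desensitizes receptors, had 0.37 ± 0.30. Among the amino acid response genes Trib3 had 0.99 ± 0.69 and Sesn2 0.94 ± 0.48, with D of -0.25 and -0.08 on slide 1 and 2.23 and 1.95 on slide 2.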
